A study of Mus musculus with 18 samples.

Results

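Wnt ligands and the secreted proteins that modulate them were followed in sorted cells of the mouse embryonic heart over 6 successive days. The set holds 10 genes, chosen by name: the ligands Wnt5a, Wnt2 and Wnt11, the Dickkopf genes Dkk2 and Dkk3, the R-spondin gene Rspo3, the secreted Frizzled-related genes Sfrp1, Sfrp5 and Frzb, and Axin2, an intracellular gene kept with them as a readout of the pathway. They are 10 of the 19057 genes with a named probe and have 16 of the 45281 probes on the array, and 14 of the 16 were bright enough to be among the 25362 probes tested. The cells came from heart ventricles of Wt1GFPKI embryos, which express green fluorescent protein (GFP) from the Wt1 locus, and GFP-positive cells were taken by FACS at E11.5, E12.5, E13.5, E14.5, E15.5 and E16.5, with 3 arrays at each stage and 18 in all. Every array therefore carries the knock-in, and no GFP-negative or wild-type cells are compared here. The labels call the cells Wt1GFP+ and the series title calls them cardiomyocytes. They mark the population with the letter M without saying what it stands for. They do not say how many embryos went into an array or whether replicates were separate litters. A p-value here reflects the spread of these arrays, and how far that spread is technical is not known.

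Wnt proteins are secreted lipid-modified ligands that bind Frizzled receptors. With the co-receptors Lrp5 and Lrp6 they stabilise beta-catenin, which acts with Tcf and Lef factors on target genes such as Axin2, whose product feeds back to destroy beta-catenin. With Ror2 or Ryk, ligands such as Wnt5a and Wnt11 act without beta-catenin on cell shape and polarity. R-spondins keep Frizzled receptors at the surface and so strengthen the response, while secreted Frizzled-related proteins bind Wnt ligands and most Dickkopf proteins block Lrp5 and Lrp6. In the embryonic heart the pathway is known from the growth of the ventricular wall, the outflow tract and the coronary vessels.

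Of the 10 genes, 6 have a promoter in the RefSeq table of mouse assembly GRCm38.p6 that was used here, namely Axin2, Wnt2, Wnt11, Dkk2, Sfrp5 and Frzb. Axin2 is shown because it is the transcriptional readout of the set. The line gives the 250 bases before its start, chr11:108920099-108920348 on the plus strand, 5′ to 3′.
Axin2: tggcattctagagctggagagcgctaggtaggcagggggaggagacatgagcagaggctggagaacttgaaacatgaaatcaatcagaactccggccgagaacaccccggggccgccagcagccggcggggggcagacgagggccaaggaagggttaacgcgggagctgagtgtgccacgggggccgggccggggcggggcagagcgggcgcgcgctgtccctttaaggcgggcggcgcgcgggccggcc
G and C made up 69.2% of these bases. The Tcf and Lef core was searched on both strands in 4 spellings, CTTTGAA and with its last letters as CTTTGAT or as CTTTGTA or as CTTTGTT. It had 0 matches in this window, so no base stands in capitals. Of 32851 mouse promoter windows of this length 14.8% held at least 1 match, and among the 6 genes a match was found for Wnt11 alone. A window without a match says only that these letters are not in it.

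All log2 levels below are probe intensities after background correction, in which a value near 5.02 is the limit of the background, and levels of different probes are not comparable. Intensities and summed intensities are deposited linear values without this correction. Each probe in a sum thus carries background, the mode of all values being 99.0, and ratios of sums are not measured folds. The offset used in the correction makes changes of dim probes smaller than they were. Members fell into a bright and a dim class. Wnt5a, Dkk3, Rspo3, Sfrp1 and Axin2 each had at least 1 probe above the limit on all 18 arrays. Wnt2, Wnt11, Sfrp5 and Frzb were above the limit on 3, 3, 4 and 6 arrays, and Dkk2 on 0, with deposited intensities of 87.8 to 99.6 against a limit of 105.4. Another probe of Dkk3 was above it on 2 arrays, and neither this probe nor that of Dkk2 was tested.

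The heart muscle markers of the sorted cells were bright at every stage. All 9 measured cardiomyocyte markers, among them Myh6 and Actc1, were above the limit on every array, and their summed intensity lay between 60774 and 63554 at E16.5, against 55108 and 56875 at E11.5. Wt1 and Tnnt2 were not analysed here. Of 11 fibroblast markers on the array 10 were tested, and all 10 were above the limit at E16.5, against 7 or 8 at E11.5. Their summed intensities were 6181 to 8747 against 2076 to 2405. Fap and Mfap5 were above the limit on 0 arrays at E11.5 and were tested only through later arrays, so the filter favoured this count. Of the 10, 9 rose and 1, Fbln1, fell by 0.93. In the lists below, markers with no array above the limit at E11.5 or at E16.5 were likewise tested through other stages. Endothelial markers (9 of 10 above the limit at E16.5, 8 to 10 at E11.5) summed to 2332 to 3616, against 1515 to 1661, and epicardial markers (6 to 8 of 10 at E16.5, 7 or 8 at E11.5) to 1314 to 1447, against 1357 to 1479. That sum covers opposite changes: 6 of the 10 epicardial markers fell between E11.5 and E16.5 and 2 rose, with a median change of -0.62. Named after their values were seen, the keratin genes Krt8, Krt19 and Krt18 fell by 1.55, 1.44 and 1.18 on the log2 scale, while Tcf21, which fibroblast precursors also express, was higher by 2.14 (adjusted p of at most 5.20e-06 for each). At E16.5 Krt19 was above the limit on only 1 array and Krt18 on 2, so the sizes of these 2 falls are limited by the background. Erythroid markers summed to 7815 to 22790 at E16.5, against 677 to 970 at E11.5 (4 to 5 of 6 above the limit at E16.5, 5 at E11.5). Of the 6, 4 rose, among them Hbb-bs and Hbb-bt by 6.36 and 6.35 on the log2 scale. The other 2 fell, Hbb-bh1 at least 1.87-fold and Hbb-y by 0.97, with only 1 E16.5 array of Hbb-y above the limit. Hbb-y averaged 6.02 at E11.5, 9.22 at E13.5, 9.05 at E14.5, 5.74 at E15.5 and 5.04 at E16.5. Of 4 macrophage markers 2 fell and 0 rose (0 also at an unadjusted p under 0.05), with summed intensities of 438 to 450 at E16.5, against 553 to 602 at E11.5, and 2 or 3 above the limit at both stages. Of 7 smooth muscle and pericyte markers 3 rose and 1 fell, with sums of 15677 to 16577 at E16.5, against 15994 to 17551 at E11.5, and 5 or 6 above the limit at E16.5, against 4 to 6 at E11.5. That sum mostly follows Acta2, by far the brightest of them, at 13.89 at E16.5 and 13.96 at E11.5 and not called. Rgs5 rose at least 5.58-fold, and Kcnj8 and Pdgfrb rose by 1.57 and 1.45 on the log2 scale. At E11.5 Kcnj8 was above the limit on only 1 array and Pdgfrb on 2, so the sizes of these 2 rises are also limited by the background. Tagln fell at least 3.30-fold. The part of these cells in any change below was not tested, and in RNA of a whole sorted sample fewer cells of a type and less RNA per cell cannot be told apart. The 3 E14.5 arrays were the most alike: the median SD of probes with a mean over 7 was 0.0774 there, against 0.107 to 0.190 at the other stages. Whether they came from 1 pool of cells is not given in the labels, so results that rest on them are also given with the 3 averaged into 1 sample, which widens the standard error. All 3 had Xist above the limit and the Y-linked Eif2s3y not, whereas 11 of the other arrays had both and 4 had Eif2s3y alone. These 4 were 1 each at E12.5, E13.5, E15.5 and E16.5, so at each of those stages the 3 arrays did not all come from 1 pool of cells. The array most like E13.5 replicate 1 was one of E14.5 (r = 0.990), and the one most like E12.5 replicate 1 was one of E13.5 (r = 0.986). Each E16.5 array was most like the E15.5 array of the same number (r = 0.990, 0.993 and 0.988). E15.5 replicates 1 and 2 were likewise most like the E16.5 arrays of their number.

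Between E11.5 and E16.5 the secreted members that were above background went down together: Dkk3 most, then Wnt5a, Rspo3 and Sfrp1, and with them Axin2. In limma's moderated test, adjusted by the Benjamini-Hochberg method over all tested probes, 11 of the 14 member probes fell and 0 rose at a threshold of 0.05 (0 also at an unadjusted p under 0.05), where 10.4% of all tested probes fell and 8.94% rose. The arrays of E16.5 and E11.5 did not overlap for 12 of the 14, where 32.9% of all tested probes did not overlap. Wnt2, among the 11 and the 12, and Wnt11, among the 12, were tested only through arrays of E11.5 to E13.5. Neither was above the limit on any E16.5 array, so the filter favoured a fall for both. The median change of the 14 was -0.91 on the log2 scale, against -0.02 over all tested probes. The 14 probes belong to 9 genes, so probes of 1 gene are not separate members. Of the 9 genes 6 had a probe that fell, where 12.8% of all 12869 tested genes fell by their brightest probe. The genes were picked with earlier results of these data known, so these counts describe the set and are not independent evidence of its direction. In the F test over the 6 stages 10 of the 14 probes passed, against 23.2% of all tested probes.

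**Figure D1:**
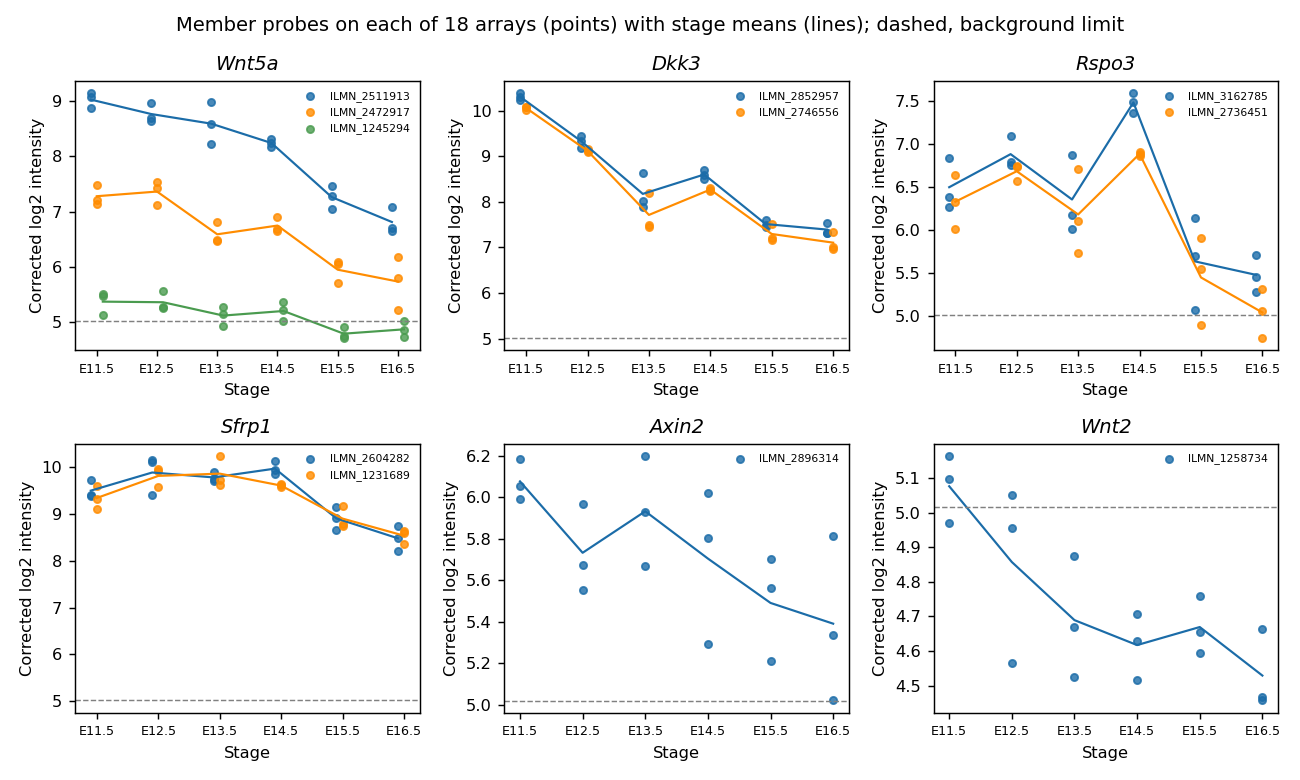
Corrected log2 intensity (vertical axis) of the tested probes of Wnt5a, Dkk3, Rspo3, Sfrp1, Axin2 and Wnt2 at the 6 stages (horizontal axis). Each point is 1 array, lines join stage means, colours separate probes of 1 gene, and the dashed line at 5.02 is the background limit; the vertical axes differ between panels. Dkk3 descends in steps, Wnt5a mostly after E14.5, and Rspo3 has its highest arrays at E14.5.

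Among the ligands, Wnt5a was the member measured well. Wnt5a is a secreted ligand known for signalling through Ror2 in the movement and shape of cells. Its brightest probe (ILMN_2511913) read 9.14, 8.87 and 9.07 on the arrays of E11.5, 8.64, 8.69 and 8.97 at E12.5, and 8.22, 8.58 and 8.98 at E13.5. It read 8.24, 8.31 and 8.17 at E14.5, 7.28, 7.05 and 7.46 at E15.5, and 7.09, 6.70 and 6.65 at E16.5. The arrays of the first 3 days overlapped from each day to the next, and every array of the last 2 days lay below every earlier one. The level was 6.81 ± 0.24 at E16.5 and 9.03 ± 0.14 at E11.5 (SD, n = 3 each), 4.63-fold lower (log2 change -2.21, SE 0.16, adjusted p = 1.95e-10).

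The largest daily step of Wnt5a was the one into E15.5. On the brightest probe the change was -0.98 (SE 0.16, adjusted p = 0.000651), and the changes of the other 4 steps, -0.26, -0.17, -0.35 and -0.45, did not pass. A second probe (ILMN_2472917) fell by 0.80 at the same step (SE 0.18, adjusted p = 0.0123) and already by 0.77 between E13.5 and E12.5 (adjusted p = 0.0255). The 2 probes thus place the early part of the fall differently, with E13.5 at 6.59 ± 0.19 and E12.5 at 7.36 ± 0.22 (n = 3 each) on the second. That early call was lost without E12.5 replicate 1 or 3 or E13.5 replicate 2 or 3 (adjusted p = 0.0677 to 0.135), and the later one without E14.5 replicate 1 (adjusted p = 0.0804) or E15.5 replicate 2 (adjusted p = 0.115). Without E13.5 replicate 1 the brightest probe also passed at E14.5 against E13.5 (-0.54, adjusted p = 0.0399). With the E14.5 arrays averaged into 1 sample the calls into E15.5 were lost on both probes (adjusted p = 0.110 on the brightest and 0.433 on the second). The last probe (ILMN_1245294) lay near the limit, at 4.87 ± 0.14 at E16.5 and 5.37 ± 0.21 at E11.5 (n = 3 each), and fell by 0.50 (SE 0.14, adjusted p = 0.0104). This call was lost without E11.5 replicate 1, E11.5 replicate 3 or E16.5 replicate 3, with adjusted p of 0.0638, 0.0561 and 0.0534.

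Wnt2 and Wnt11 lay at the background. Wnt2, a beta-catenin ligand known from the cardiac progenitors of the second heart field, was above the limit on 2 arrays at E11.5 (5.10 and 5.16, with 4.97 on the other), on 1 at E12.5 and on 0 at every later stage. At E16.5 it read 4.66, 4.46 and 4.47, which are background values. It was at least 1.04-fold lower at E16.5 than at E11.5 (adjusted p = 0.00381, measured means 4.53 at E16.5 and 5.08 at E11.5), and it was tested only because of its early arrays. Wnt11, a ligand of the outflow tract and of polarised cell movement, was above the limit on 1 array at each of E11.5, E12.5 and E13.5. It was not above the limit on any E16.5 array, and the comparison of E16.5 with E11.5 did not pass (measured means 4.61 at E16.5 and 4.86 at E11.5, adjusted p = 0.209).

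Of the Dickkopf genes, Dkk3 changed most of the whole set. Dkk3 is a divergent Dickkopf protein, not a general blocker of Lrp6 as Dkk1 and Dkk2 are known to be. Its brightest probe (ILMN_2852957) read 10.31, 10.38 and 10.23 at E11.5, 9.45, 9.35 and 9.19 at E12.5, and 8.63, 8.01 and 7.88 at E13.5. It then read 8.70, 8.58 and 8.51 at E14.5, 7.45, 7.49 and 7.60 at E15.5, and 7.32, 7.32 and 7.53 at E16.5. The stages separated without overlap at every step but 2, E14.5 against E13.5 and E16.5 against E15.5. The level was 7.39 ± 0.12 at E16.5 and 10.31 ± 0.08 at E11.5 (SD, n = 3 each), with a log2 change of -2.92 (SE 0.15, adjusted p = 3.60e-13), and the other tested probe (ILMN_2746556) changed by -2.95 (SE 0.16).

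Dkk3 fell in 3 separate steps, which both probes showed. The first was E12.5 against E11.5, with changes of -0.98 (SE 0.15, adjusted p = 0.000286) and -0.94 (adjusted p = 0.000967), and at this step 2 of the 14 member probes fell, both of Dkk3, where 0.773% of all tested probes fell. The second was E13.5 against E12.5, with -1.15 (SE 0.15, adjusted p = 0.000154) and -1.41 (adjusted p = 1.83e-05). There 3 member probes fell, these 2 and 1 of Wnt5a, against 1.15% of all tested probes. The third was E15.5 against E14.5, with -1.09 (SE 0.15, adjusted p = 6.14e-05) and -0.97 (adjusted p = 0.000470), of which the call on the second probe was lost with the E14.5 arrays averaged (adjusted p = 0.0956).

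Between these falls the E14.5 mean stood above that of E13.5, and the call on it turned on single arrays. The differences, E14.5 minus E13.5, were 0.43 (adjusted p = 0.114) and 0.56 (adjusted p = 0.0522) on the 2 probes, short of the threshold. E13.5 replicate 1, with 8.20 on the second of these probes (ILMN_2746556), lay near the E14.5 arrays (8.23, 8.27 and 8.31), while E13.5 replicates 2 and 3 read 7.50 and 7.44 on it. Without E13.5 replicate 1 the differences were 0.66 (SE 0.13, adjusted p = 0.00260) and 0.80 (SE 0.14, adjusted p = 0.000915). Of the 28 alternatives tried, 10 put ILMN_2746556 past the threshold at this step.

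Dkk2, a Dickkopf protein that binds Lrp6, stayed at the background on all 18 arrays, with log2 values of 4.05 to 4.73. Its stage means lay between 4.22 and 4.30, and no stage stood apart from another. The third Dkk3 probe (ILMN_1224173) averaged 4.61 ± 0.10 at E16.5 and 4.88 ± 0.21 at E11.5 (n = 3 each) and its arrays at these stages overlapped.

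Rspo3 reached its highest level at E14.5 and then fell. Rspo3 is an R-spondin ligand of the Lgr receptors, known in mice to be needed for coronary vessel growth. Its brightest probe (ILMN_3162785) read 6.84, 6.27 and 6.38 at E11.5, 6.76, 6.80 and 7.10 at E12.5, and 6.88, 6.01 and 6.18 at E13.5. At E14.5 it read 7.37, 7.49 and 7.59, at E15.5 6.15, 5.07 and 5.69, and at E16.5 5.71, 5.27 and 5.45. All 3 arrays of E14.5 were above the other 15, and the arrays of E16.5 lay below all those of the first 4 days.

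The rise of Rspo3 into E14.5 was the 1 upward call among the member probes in any daily step, where 1.42% of all tested probes rose. The level was 7.48 ± 0.11 at E14.5 and 6.36 ± 0.46 at E13.5 (SD, n = 3 each), 2.19-fold higher (log2 change 1.13, SE 0.22, adjusted p = 0.00735). The second probe (ILMN_2736451) differed by 0.70 at this step (SE 0.22, adjusted p = 0.0754), and by 0.97 (adjusted p = 0.00807) without E13.5 replicate 1. The call of the brightest probe was lost without E13.5 replicate 2 (adjusted p = 0.0568), without E13.5 replicate 3 (adjusted p = 0.0655) and with the 3 E14.5 arrays averaged into 1 sample (adjusted p = 0.566). The endothelial markers averaged 6.09 ± 0.04 at E14.5 and 6.61 ± 0.17 at E13.5 (n = 3 each), and the fibroblast markers 7.24 ± 0.06 and 7.31 ± 0.30. The erythroid markers averaged 9.25 ± 0.07 at E14.5 and 8.74 ± 0.58 at E13.5 (n = 3 each). In the same order the epicardial markers averaged 5.76 ± 0.01 and 6.01 ± 0.14, and the macrophage markers 5.45 ± 0.03 and 5.72 ± 0.09. The smooth muscle and pericyte markers averaged 6.83 ± 0.0049 and 6.85 ± 0.03, and the cardiomyocyte markers 11.62 ± 0.02 and 11.60 ± 0.12. A list mean covers members that moved apart, as Lum (7.10 at E14.5 and 6.63 at E13.5) and Col1a1 (7.60 and 8.32) did. The part of these cells, and of the sex-linked genes in which the E14.5 arrays stood apart, in the level of Rspo3 was not tested. The step before it, E13.5 against E12.5, was not called (-0.53 and -0.50), but without E13.5 replicate 1 both probes fell (-0.79, adjusted p = 0.0309, and -0.76, adjusted p = 0.0372).

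At the next step Rspo3 fell by more than it had risen. The change from E14.5 to E15.5 was -1.85 on the brightest probe (SE 0.22, adjusted p = 9.47e-06) and -1.44 on the second (SE 0.22, adjusted p = 0.000277). With the E14.5 arrays averaged the call on the second probe was lost (adjusted p = 0.0727). Against E11.5 the E16.5 level was 2.03-fold lower (5.48 ± 0.22 at E16.5 and 6.50 ± 0.30 at E11.5, n = 3 each, SE 0.22 on the log2 scale, adjusted p = 0.00129) and 2.44-fold lower on the second probe. Both probes also had a negative quadratic coefficient over the 6 stages, -0.87 (adjusted p = 0.000968) and -0.82 (adjusted p = 0.00186).

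Among the secreted Frizzled-related genes, Sfrp1 was bright and the other 2 were not. Sfrp1 encodes a soluble protein with a Frizzled-type domain that binds Wnt ligands outside the cell. Its brightest probe (ILMN_2604282) read 9.39, 9.37 and 9.71 at E11.5, 9.40, 10.15 and 10.09 at E12.5, and 9.74, 9.89 and 9.70 at E13.5. It read 9.84, 10.12 and 9.93 at E14.5, 9.14, 8.91 and 8.66 at E15.5, and 8.49, 8.74 and 8.21 at E16.5. Each array of the last 2 days was below each array of the first 4, which overlapped among themselves.

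Sfrp1 had no called step up to E14.5 and fell in the one after it. From E14.5 to E15.5 the changes were -1.06 (SE 0.18, adjusted p = 0.000577) and, on the second probe (ILMN_1231689), -0.70 (SE 0.16, adjusted p = 0.0135), and the call on that probe was lost without E14.5 replicate 1 or 3 or E15.5 replicate 2 or 3 (adjusted p = 0.0589 to 0.110). With the E14.5 arrays averaged neither probe passed (adjusted p = 0.0959 on the brightest and 0.481 on the second). The first step, E12.5 against E11.5, gave 0.39 (adjusted p = 0.406) and 0.47 (adjusted p = 0.203) and was not called. Over the whole period Sfrp1 was 2.02-fold lower (8.48 ± 0.27 at E16.5 and 9.49 ± 0.19 at E11.5, n = 3 each, SE 0.18 on the log2 scale, adjusted p = 0.000121) and 1.75-fold lower on the second probe. The quadratic coefficients were -0.86 (adjusted p = 8.57e-05) and -0.78 (adjusted p = 0.000111).

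Sfrp5 and Frzb, which encode relatives of Sfrp1, stayed near the limit. Sfrp5 lay between 4.55 and 5.38 and was above the limit on 1 array at each of E11.5, E13.5, E14.5 and E16.5, with a change of -0.08 (SE 0.16, adjusted p = 0.795). Frzb was above it on 0 arrays at E11.5, on 2 at E16.5 and on 1 at each stage between, and did not pass (measured means 4.98 at E16.5 and 4.75 at E11.5, adjusted p = 0.400). Neither passed the F test over the stages (adjusted p = 0.806 and 0.823).

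Axin2, the feedback gene of beta-catenin signalling, was dim but above the limit on every array. It read 6.05, 5.99 and 6.19 at E11.5, 5.97, 5.67 and 5.56 at E12.5, and 5.67, 6.20 and 5.93 at E13.5. It read 6.02, 5.80 and 5.29 at E14.5, 5.70, 5.21 and 5.56 at E15.5, and 5.81, 5.34 and 5.02 at E16.5. The spread within a stage was wide next to the drift between stages, although the arrays of E12.5, E15.5 and E16.5 all lay below those of E11.5. The level was 5.39 ± 0.40 at E16.5 and 6.08 ± 0.10 at E11.5 (SD, n = 3 each), 1.61-fold lower (log2 change -0.68, SE 0.19, adjusted p = 0.0121).

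The call on Axin2 was less firm than those on the bright members. It was lost without E16.5 replicate 3 (-0.50, adjusted p = 0.103) or without E11.5 replicate 3 (-0.63, adjusted p = 0.0558). None of the 5 daily steps passed, with changes from -0.34 to 0.20, and the F test gave an adjusted p of 0.0593. The linear trend over the 6 stages was negative (coefficient -0.52, SE 0.14, adjusted p = 0.00519).

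The step from E14.5 to E15.5 was the one that the bright secreted members shared. At this step 8 of the 14 member probes fell and 0 rose (0 also at an unadjusted p under 0.05), 2 each of Wnt5a, Dkk3, Rspo3 and Sfrp1, where 1.31% of all tested probes fell and 1.84% rose. The step from E15.5 to E16.5 had 0 calls among the 14 in limma, where 0.00394% of all tested probes (1 probe, a rise) was called; 3 of the 14 had an unadjusted p under 0.05, and member changes there ran from -0.45 to 0.17. With the replicate number as a block and the arrays of those 2 stages alone, 0 of the 14 passed as well, the lowest adjusted p being 0.778. With the 3 E14.5 arrays averaged into 1 sample, 2 of the 14 passed into E15.5, 1 of Dkk3 and 1 of Rspo3, where 0.272% of all tested probes were called, against 3.15% with the arrays kept apart. Between E14.5 and E15.5 the fibroblast markers averaged 8.18 ± 0.37 at E15.5 and 7.24 ± 0.06 at E14.5, the endothelial ones 6.90 ± 0.36 and 6.09 ± 0.04, and the epicardial ones 5.53 ± 0.05 and 5.76 ± 0.01 (SD, n = 3 each). Within the epicardial list 3 genes are named after their values were seen. Krt19 averaged 5.30 at E15.5 and 6.86 at E14.5 and Krt18 5.37 and 6.59, while Tcf21 averaged 8.07 and 7.31. Of the others, Krt8, Tbx18 and Msln were lower at E15.5, and Upk3b, Upk1b, Aldh1a2 and Bnc1 were higher. The means of Msln, Upk1b, Aldh1a2 and Bnc1 lay under the limit at both stages. The macrophage markers averaged 5.22 ± 0.09 at E15.5 and 5.45 ± 0.03 at E14.5, and the smooth muscle and pericyte markers 7.32 ± 0.14 and 6.83 ± 0.0049 (SD, n = 3 each). The erythroid markers averaged 8.97 ± 0.13 at E15.5 and 9.25 ± 0.07 at E14.5, and the cardiomyocyte markers 11.72 ± 0.03 and 11.62 ± 0.02. Within the erythroid list Hbb-y averaged 5.74 at E15.5 and 9.05 at E14.5 and Hbb-bh1 4.86 and 5.14. Hbb-bs, Hbb-bt, Hba-a1 and Alas2 were higher at E15.5. The part of these lists in the falls was not tested. Of the sex-linked genes, the 3 E14.5 arrays had Xist alone, while at E15.5 2 arrays had both Xist and Eif2s3y and 1 had Eif2s3y alone. Embryo sex and stage thus differed together at this step, and the part of sex was not tested.

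**Figure D2:**
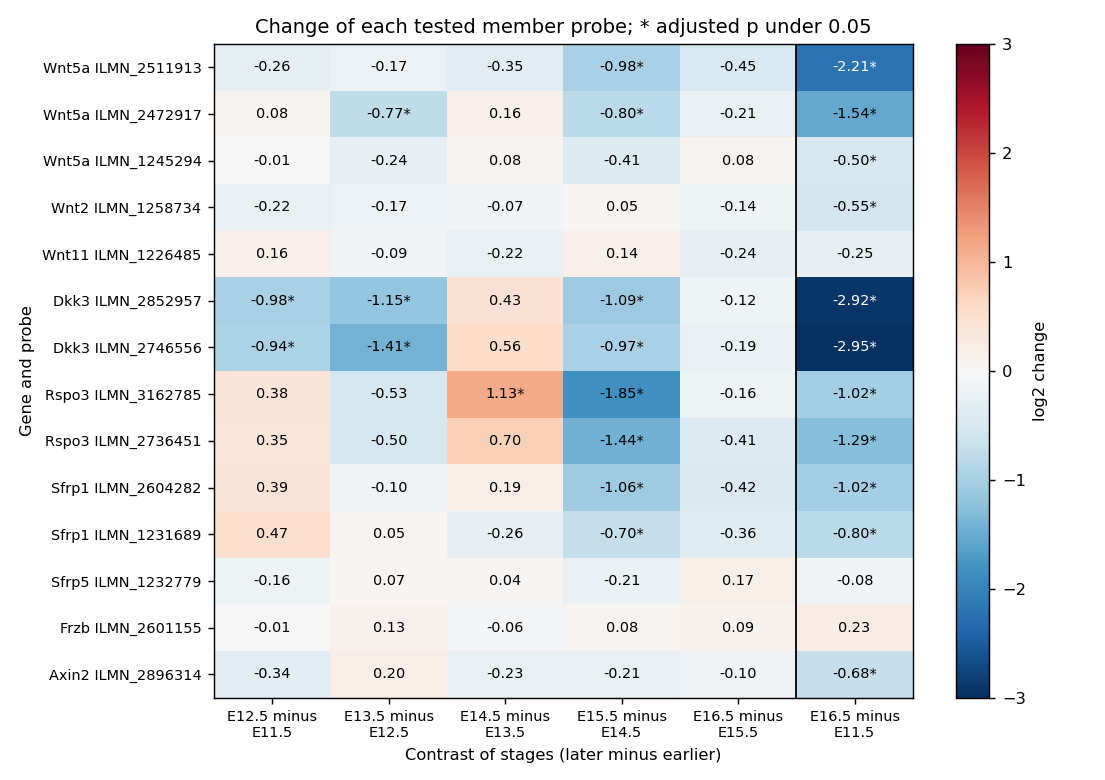
Change in log2 intensity of the 14 tested member probes (rows) in the 5 daily steps and between E16.5 and E11.5 (columns), each as the later minus the earlier stage. Blue is lower and red is higher at the later stage, and an asterisk marks an adjusted p under 0.05; some differences of Wnt5a ILMN_1245294, Wnt2, Wnt11, Sfrp5 and Frzb involve a stage with no array above the limit and are not measured folds. The column of E15.5 minus E14.5 has 8 marks, that of E16.5 minus E15.5 has 0, and Dkk3 alone has marks in 3 steps on both probes.

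The other genes of the pathway, taken from a list of 106, moved in both directions. Of these genes 75 were tested, each by its brightest probe, and 9 rose and 14 fell between E11.5 and E16.5, which is 23 of 75. Over all 12869 genes tested 24.1% were called, 11.4% up and 12.8% down. The median change of the 75 was -0.07 on the log2 scale, against -0.01 for all genes.

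The ligands outside the set were mostly at the background. Of 16 on the array 6 were tested, 1 rose and 0 fell (1 fell at an unadjusted p under 0.05). Wnt5b, a close relative of Wnt5a, was the one that rose (adjusted p = 0.000369). It read 5.57 ± 0.08 at E16.5, with 3 of 3 arrays above the limit, and 4.96 ± 0.08 at E11.5, where only 1 of 3 was above it, so no fold is given. Wnt16 was above the limit on 0 arrays at E16.5 and on 2 at E11.5 and did not pass (measured means 4.79 at E16.5 and 5.08 at E11.5, adjusted p = 0.149).

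Of 10 tested secreted modulators 2 rose and 1 fell. Igfbp4, an IGF-binding protein also known as a Wnt inhibitor in the heart, rose 2.15-fold (8.75 ± 0.31 at E16.5 and 7.65 ± 0.26 at E11.5, adjusted p = 5.71e-05). Wif1, which binds and blocks Wnt ligands, rose 1.63-fold (adjusted p = 0.00140), and Gpc3, a glypican of the cell surface, fell by 0.43 (adjusted p = 0.0257). The inhibitors named here thus went both ways, Sfrp1 down and Wif1 and Igfbp4 up.

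Genes for the release of Wnt ligands gave 0 calls among 4 in limma, the 2 largest changes being those of Vps35 (0.25, adjusted p = 0.248) and Tmed5 (-0.19, adjusted p = 0.408); 0 of the 4 had an unadjusted p under 0.05. Receptors and co-receptors gave 3 rises and 3 falls among 18. Fzd5, a Frizzled receptor, rose 2.42-fold (8.11 ± 0.18 at E16.5 and 6.84 ± 0.22 at E11.5, SE 0.13 on the log2 scale, adjusted p = 6.20e-08). Ror2, the receptor tyrosine kinase that takes up Wnt5a, fell by 0.93 (7.55 ± 0.30 at E16.5 and 8.48 ± 0.18 at E11.5, SE 0.14, adjusted p = 1.54e-05). Fzd2, a Frizzled known to bind Wnt5a, fell by 0.79 (7.35 ± 0.02 at E16.5 and 8.14 ± 0.21 at E11.5, adjusted p = 0.00151).

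Planar polarity genes gave 1 rise and 2 falls among 10. Prickle2 rose 1.63-fold (adjusted p = 0.000436), while Vangl2, a core membrane protein of planar polarity, fell by 0.56 (adjusted p = 0.00854) and Celsr2, an adhesion-type receptor of the same system, by 0.49 (adjusted p = 0.0162). Intracellular genes of the beta-catenin branch gave 1 rise and 4 falls among 20. Lef1, a partner of beta-catenin on DNA, was not above the limit at E16.5 and was at least 1.23-fold lower there (adjusted p = 0.00185). Tcf7l1, a related factor that often represses, rose 1.51-fold (adjusted p = 0.00797), and Axin1, the constitutive relative of Axin2, fell by 0.50 (adjusted p = 0.00968).

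Genes known as beta-catenin targets gave 1 rise and 5 falls among 8 tested of 15 on the array, with a median change of -0.47. Cd44, a hyaluronan receptor, had stage means of 8.45, 9.12, 8.67, 9.17, 7.75 and 7.28 from E11.5 to E16.5 and was 2.26-fold lower at E16.5 than at E11.5 (adjusted p = 1.05e-05). Tnfrsf19, a receptor of the TNF family, fell by 0.92 (adjusted p = 3.56e-05), and Lef1 belongs to this list too. The other 3 called, named after their values were seen, were Nkd1, a feedback inhibitor (-0.51, adjusted p = 0.00325), Ccnd1, the cyclin D1 gene (-0.43, adjusted p = 0.0490), and Apcdd1, a membrane inhibitor of Wnt signalling, at least 1.25-fold higher (adjusted p = 0.00369).

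**Figure D3:**
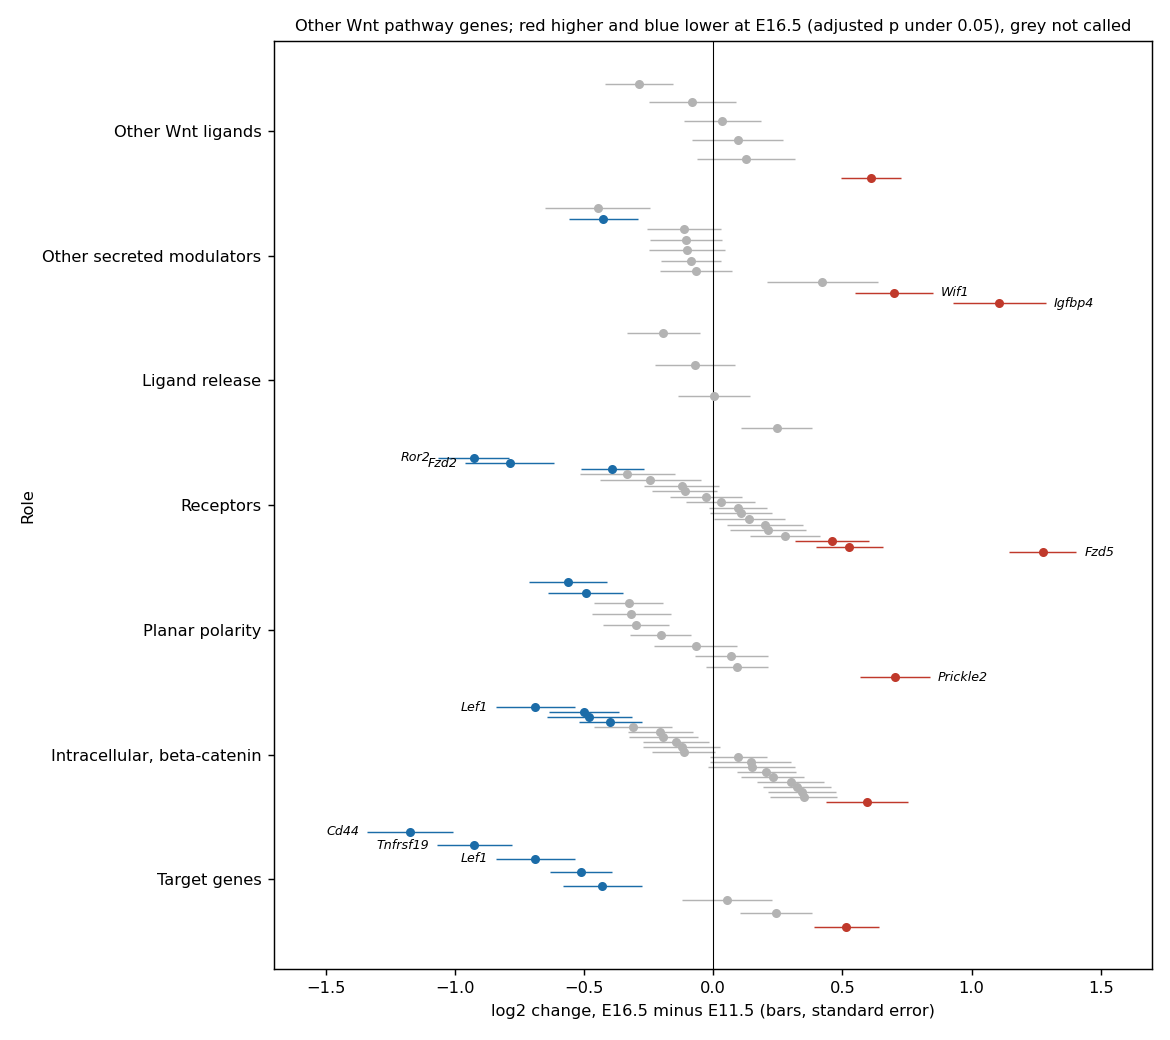
Log2 change between E16.5 and E11.5 (horizontal axis) of the 75 other tested Wnt pathway genes by role (vertical axis), with bars for the standard error; Lef1 stands in 2 roles. Red genes rose, blue genes fell and grey genes did not pass the threshold. Fzd5 lies farthest right at 1.28 and Cd44 farthest left at -1.17.

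The courses of the members were set against those of all named tested genes by Pearson's r over the 18 arrays. The arrays share the 6 stages, so r mostly follows the course over time and is given as a description. The 2 genes most like Dkk3 were Mybphl, a myosin-binding protein gene of muscle (r = 0.987), and Alcam, an adhesion molecule of the early epicardium and myocardium (r = 0.986), and the same 2 came first for its second probe (r = 0.984 and 0.982). For the brightest probe of Wnt5a they were Nudt11 (r = 0.981) and the fibrillar collagen gene Col2a1 (r = 0.970), for the second Sipa1l1 (r = 0.978) and Dab2ip (r = 0.965), and for the dimmest Synm (r = 0.908) and Exosc1 (r = 0.899).

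The other members had other neighbours. Rspo3 was most like Adgra3 (r = 0.907) and Cd44 (r = 0.904) on its brightest probe and Lpar3 (r = 0.945) and Cd44 (r = 0.939) on the second. Sfrp1 was most like Tgfb2, a TGF-beta ligand (r = 0.943), and the histone gene H2ax (r = 0.936) on its brightest probe, and Hba-x, an embryonic globin (r = 0.953), and Rad54l (r = 0.949) on the second. Wnt2 was most like the imprinted gene Mest (r = 0.912) and Bmp10, a BMP ligand of heart trabeculae (r = 0.865). Wnt2 was above the limit on only 3 of the 18 arrays, so these r values rest mostly on background readings. Within the set, the 2 bright probes of Dkk3 correlated with r = 0.991, those of Rspo3 with r = 0.963, those of Sfrp1 with r = 0.915 and those of Wnt5a with r = 0.885.

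**Figure D4:**
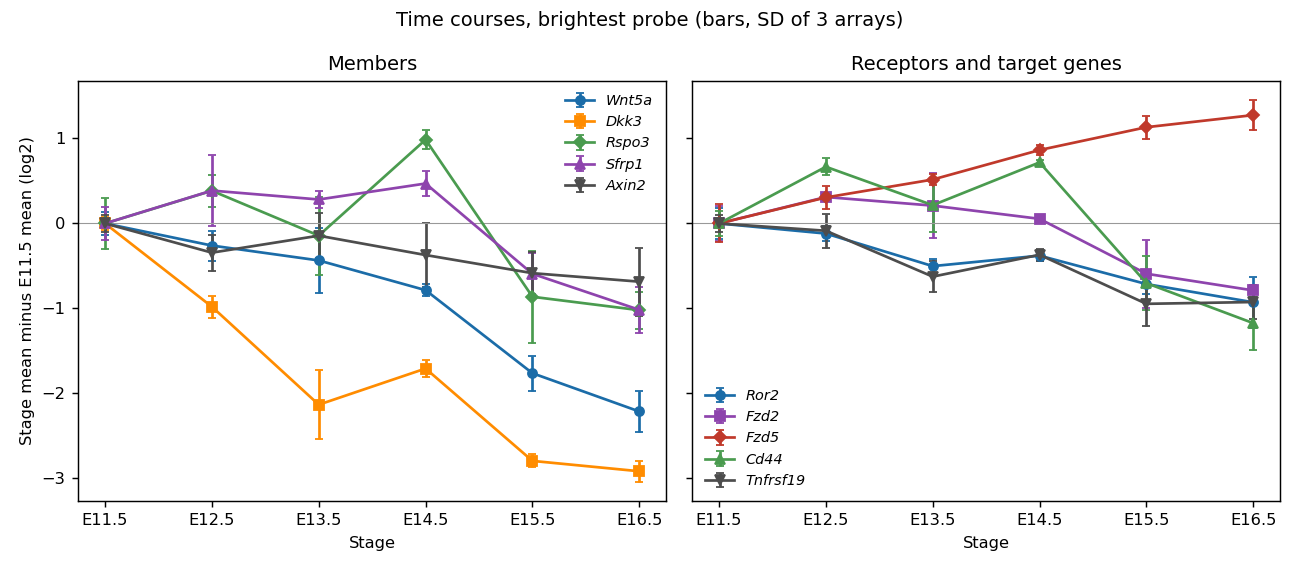
Stage mean minus the E11.5 mean (log2, vertical axis) over the 6 stages (horizontal axis) for the brightest probe of 5 members (left) and of 5 receptor and target genes (right); bars are the SD of 3 arrays. Sfrp1 and Rspo3 lie above their E11.5 level at E14.5 and below it from E15.5, Dkk3 and Wnt5a lie below it at every later stage, Cd44 turns after E14.5, and Fzd5 is higher at each successive stage.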

How the data were processed

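Total RNA of GFP-positive ventricular cells was measured on 18 Illumina mouse arrays. The deposited values are linear probe intensities, which the authors quantile-normalized (any rank's value varied by no more than 0.0874% across arrays); GenomeStudio 2011.1 stands in the submitters' processing notes. A table without normalization, with 36 columns named for no sample, was not used. Values were background-corrected with normexp (limma 3.58.1, R 4.3.3, offset 16) and put on log2. The limit of background, an intensity of 105.4, is the mode of all values plus 1.64 SD of the spread below it. Probes above it on at least 3 arrays were tested in 1 linear model with a coefficient per stage (lmFit, eBayes), with p-values adjusted by Benjamini-Hochberg over 25362 probes and a threshold of 0.05. Symbols came from the platform annotation: 34885 probes have 1, 18 have several and 10378 have none.

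A called change against a stage with no array above the limit is given as at least N-fold, against the dimmest probe above the limit on those arrays; where it was not called, both measured means are given. Precision is limited by having 3 arrays at a stage. The model was tested on simulated data for E16.5 against E11.5. It recovered 100% of true log2 changes of -2, 96% of -1, 94% of 1 and 16% of -0.5. Changes near 0.5 that were not called can therefore have been missed. Only 200 of the 25362 simulated probes were changed, whereas in the data 8.94% of tested probes rose and 10.4% fell. The strictness of the adjustment depends on that share, so recovery in the data can differ from these values. Members, gene lists and tests were chosen with earlier results of these data known. All members were named; other Wnt genes were named by the largest called changes of each list, up to 3, or the 2 largest changes where fewer passed, and genes of like course by the 2 highest correlations. Same-numbered E16.5 and E15.5 arrays deviated together from their stage means (r = 0.283, 0.190 and 0.333); between E16.5 and E11.5 r was 0.0864, 0.146 and 0.0262. Alternatives changed the background correction, the filter, the variance model, array weights, the arrays fitted, the replicate block and the probe of a gene, and left out each array.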

Additional observations from a re-analysis of the deposited data

How the results depend on the processing

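Of the 14 member probes 11 fell between E11.5 and E16.5; the count was 9 to 11 without any 1 array and 10 or 11 under the other alternatives. Calls in the daily steps, 14 in all, numbered 12 to 20 without any 1 array. They numbered 7 with the 3 E14.5 arrays averaged into 1 sample, an alternative chosen after seeing the data that leaves fewer samples, and 20 without E12.5 replicate 1 and E13.5 replicate 1 together, also chosen afterwards. In the F test 10 probes passed, 9 to 11 without any 1 array. Of the other Wnt genes 23 were called, 17 to 24 without any 1 array and 18 to 27 under the others, the low end being the mean over probes per gene. With the replicate block the 4 counts were 11, 16, 11 and 24, and the E13.5 to E14.5 rises of Dkk3 ILMN_2746556 (adjusted p = 0.0384) and Rspo3 ILMN_2736451 (adjusted p = 0.0323) passed; no other member call in the steps or between E11.5 and E16.5 changed with it. Of 25 single changes called, 15 passed under every alternative that tested them (the filter on all 3 arrays of a stage left Wnt2 untested), and 7 of 59 not called passed under at least 1; 0 reversed. Probes near an intensity of 105.4 give only a bound.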
